A study of Mus musculus with 8 samples.

Results

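The 50 genes described here encode proteins of the lysosome: 13 proteases, 15 enzymes that cut sugars and sulfates from glycans, 10 proteins of lipid breakdown and sterol transfer, 8 membrane proteins, 2 acid phosphatases and 2 regulators. They were chosen by name as lysosomal genes out of 20692 genes measured, with earlier results of these data known. All 50 were targets of the quantification. Acp5, an acid phosphatase known from bone-resorbing cells, had 0 reads in all 8 libraries, which by counting error alone allows up to 0.164 (PKCd replicate 1) to 3.11 (PKCd replicate 3) CPM, or 3 counts per library, and the other 49 passed the filter on low counts.

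The study sequenced td-Tomato-positive cells of the central amygdala, about 1000 sorted cells per library and 1 male mouse per library. The PKCd libraries came from offspring of PKC delta-type::Cre and Rosa::loxP-STOP-loxP-td-Tomato mice, and the SST libraries from SST::Cre crossed to the same reporter line. All groups therefore carried the reporter allele and a Cre allele, and no group without Cre was used here. PKCd replicates 1 and 2 were from mice of 9 weeks and replicates 3 and 4 from mice of 18 weeks. SST replicates 1 and 2 were from mice of 8 weeks and replicates 3 and 4 from mice of 20 weeks. The reporter stays on in any cell that has ever expressed Cre, and papain dissociation with sorting sets which cells reach a library.

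Lysosomes are acidic organelles in which a large set of hydrolases breaks down proteins, glycans and lipids delivered by endocytosis, phagocytosis and autophagy. Most of these enzymes are made as precursors, tagged with mannose 6-phosphate in the Golgi, and activated by the low pH that a proton pump keeps up. Every cell has lysosomes, but phagocytes such as microglia, the resident macrophages of the brain, carry high levels of several cathepsins, and many of the enzymes are known from storage diseases that strike the brain.

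The question here was which of the 50 genes followed the difference in microglial transcripts between the PKCd and SST libraries and which did not. The summed level of 12 microglial markers, in TPM, a share of each library's transcripts corrected for target length, was 22547.1 to 37565.9 in the PKCd libraries and 220.2 to 4162.7 in the SST libraries, and none of the 12 overlapped between populations. Their median log2 fold change, PKCd minus SST, was 4.42 (range 2.61 to 6.74). Prkcd, the gene that marks the PKCd population, was 106.5, 157.5, 225.7 and 221.3 TPM in PKCd replicates 1 to 4 and at most 30.2 TPM in SST libraries. Sst was 116.3 to 296.2 TPM in SST libraries, and PKCd replicate 2 also held 222.7 TPM of it, against at most 13.7 in the other PKCd libraries. The sum of 8 neuronal markers was low in both populations, 108.1 to 573.1 TPM in PKCd and 117.6 to 507.4 TPM in SST, and Slc32a1, which loads GABA into vesicles, was at 0 in 4 libraries. Libraries of the younger mice held 10316149 to 18242496 estimated counts and those of the older mice 964361 to 2522749, so that depth goes with age class. In such mixed samples, fewer cells of a type and less RNA per cell cannot be told apart.

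Many lysosomal genes are known to carry, near their start, the palindrome bound by TFEB and its relatives, the transcription factors that raise lysosomal genes together. Promoters of 3 members are printed to show what such windows hold: Ctsd, which was higher in PKCd libraries with 2 copies of the core CACGTG, Laptm5, also higher, with none, and Ctsa, whose difference did not pass the test, with 2. Capitals mark CACGTG, or the longer TCACGTGA where it is present, searched on both strands with GAGGAAGT, a motif known for the myeloid factor PU.1. The windows run from 250 bases before a RefSeq start to 20 bases after it, in RefSeq sequence of build GRCm38.p6, with the gene's strand read 5' to 3'. The window of Laptm5 lies inside the gene's span of chr4:130912890-130936148. Its lack of CACGTG therefore does not cover the bases before that span.
Ctsd (GRCm38, chr7:142387808-142388077, minus strand): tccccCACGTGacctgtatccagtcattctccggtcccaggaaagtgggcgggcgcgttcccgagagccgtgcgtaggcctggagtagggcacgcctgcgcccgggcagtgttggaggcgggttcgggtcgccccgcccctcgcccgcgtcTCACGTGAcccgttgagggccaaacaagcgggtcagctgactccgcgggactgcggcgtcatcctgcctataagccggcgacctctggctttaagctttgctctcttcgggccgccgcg
Laptm5 (GRCm38, chr4:130913066-130913335, plus strand): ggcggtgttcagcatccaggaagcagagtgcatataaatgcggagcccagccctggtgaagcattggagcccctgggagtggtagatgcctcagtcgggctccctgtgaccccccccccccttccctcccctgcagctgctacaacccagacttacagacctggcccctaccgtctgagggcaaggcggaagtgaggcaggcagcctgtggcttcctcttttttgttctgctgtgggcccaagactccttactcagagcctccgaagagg
Ctsa (GRCm38, chr2:164833523-164833792, plus strand): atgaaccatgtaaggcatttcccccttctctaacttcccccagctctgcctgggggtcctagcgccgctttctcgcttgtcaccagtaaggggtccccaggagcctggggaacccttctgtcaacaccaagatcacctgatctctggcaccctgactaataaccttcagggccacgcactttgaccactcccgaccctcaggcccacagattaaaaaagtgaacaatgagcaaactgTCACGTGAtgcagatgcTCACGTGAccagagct

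In Ctsd the cores began 245 and 98 bases before the start, and in Ctsa, at the second of its 2 starts, 12 bases before and 5 bases after it. Of the 46 members with an entry in the table, 14 (30.4%) held CACGTG and 5 (10.9%) held TCACGTGA within 250 bases before to 50 after a start, compared with 8.09% and 1.12% of all 27025 genes in the table. Counted by window, the shares were 25.9% and 9.26% of the members' 54 windows and 7.15% and 0.974% of all 32851 windows. The motifs overlap, since every TCACGTGA holds CACGTG. The 5 members with TCACGTGA were Cln3, Ctsa, Ctsd, Gla and Mcoln1. GAGGAAGT lay in the windows of 4 members (8.7%), Ctsc, Ctss, Gla and Gusb, and of 3.69% of all genes (7.41% of the members' windows and 3.2% of all windows). These matches are letters in a window and say nothing of binding.

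Across the 49 members tested, 5 were higher in PKCd libraries at an adjusted p under 0.05 (edgeR quasi-likelihood test, Benjamini-Hochberg over 11328 genes) and 0 were lower. The 5 were the proteases Ctsd and Lgmn, the glycosidases Hexa and Man2b1, and the membrane protein Laptm5. They make up 10.2% of the members, and the same call was reached by 0.282% of all genes tested in the higher direction and by 0.0% in the lower. At an unadjusted p under 0.05, 17 members (34.7%) were higher, beside 4.33% of all genes tested, and 1 (Cd63, 2.04%) was lower, beside 2.34%. DESeq2 called 16 members (32.7%) higher and 0 lower, beside 3.2% and 0.812% of all genes. On simulated data DESeq2 called 103 unchanged genes and edgeR 4, so the DESeq2 calls are the less strict. In 20 members every PKCd library had more TPM than every SST library (40.8%, background 3.88%), and in 1 member, Cd63, every PKCd library had less (background 3.05%). The median log2 fold change was 0.98 over the members and -0.08 over all genes tested, with 42 of 49 members above 0. Because the list was chosen with earlier results of these data known, shares set beside all genes describe the members and do not test the list. Without PKCd replicate 1, 3 or 4, or without SST replicate 4, the count of called members fell from 5 to 0. It was 1 without SST replicate 3, 3 without SST replicate 1 or 2, and 4 without PKCd replicate 2. The member called without SST replicate 3 was Pla2g15, so 0 of the 5 kept their call there. In the fit without SST replicate 1, 2 of the 5 kept it, and the further call was Ctss. The members separated in TPM numbered 20 to 24 when any library was left out. Leaving out a library cannot undo a separation, so this count could not fall and is no check on it.

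Summed over all 50 genes, the level came to 28048.1 ± 8848.9 TPM for PKCd and to 8268.6 ± 609.4 TPM for SST (SD over 4 libraries), a ratio of 3.39. The sum in SST libraries varied little although the microglial marker sum differed between the same 4 libraries from 220.2 to 4162.7 TPM. By role, the ratio of mean sums was 8.79 for the aspartic and serine proteases, 6.14 for the regulators, 5.41 for the cysteine proteases, 2.87 for the glycosidases and sulfatases, 1.77 for the lipid proteins, 1.36 for the membrane proteins and 1.33 for the phosphatases. Ctsd and Ctss together made up 41.5% of all member TPM in PKCd libraries and 12.1% in SST libraries, as means over libraries.

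**Figure D1:**
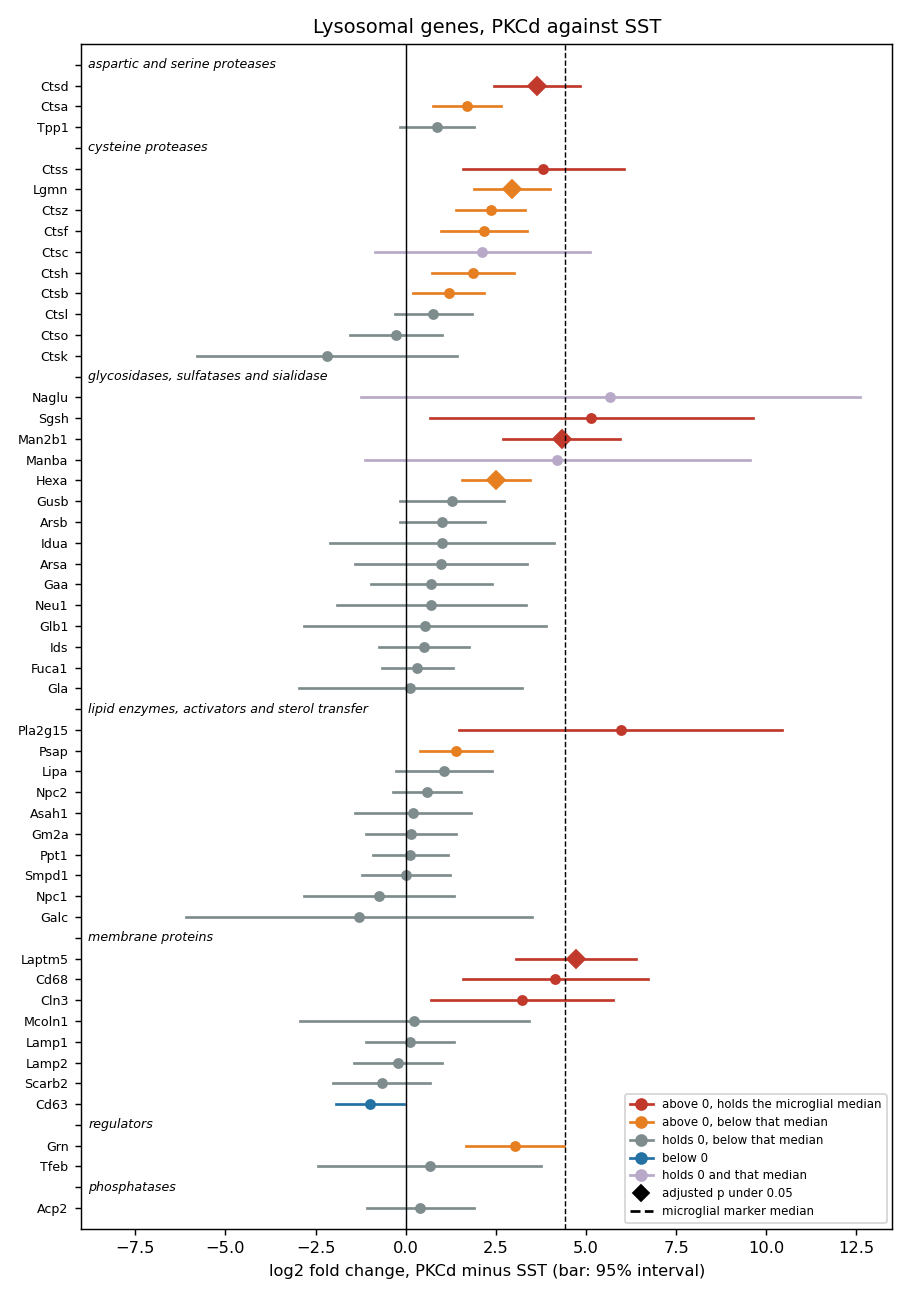
Log2 fold change, PKCd minus SST, of the 49 tested members by role, with 95% intervals from the edgeR fit (n = 4 per population); diamonds mark adjusted p under 0.05 and the dashed line the microglial marker median of 4.42. Ctsd, Lgmn, Hexa, Man2b1 and Laptm5 carry diamonds, and 28 members have intervals that hold 0 and end below the dashed line.

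Ctsd encodes cathepsin D, the main aspartic protease of the lysosome (chr7:142375910-142387827). It had the highest mean TPM of the members: 6508.4, 4920.0, 8761.3 and 5049.7 TPM in PKCd replicates 1 to 4, and 249.5, 873.2, 808.5 and 266.9 TPM in SST replicates 1 to 4. The populations did not overlap, and SST replicates 2 and 3 stood above the other 2 SST libraries. The edgeR estimate was 3.64 ± 0.55 on the log2 scale (SE) at an adjusted p of 0.0236, which became 0.0666 to 0.085 without PKCd replicate 1, 3 or 4 or without SST replicate 3 or 4. The serine carboxypeptidase Ctsa, which also protects beta-galactosidase and sialidase, was 351.5 to 792.4 TPM in PKCd and 97.0 to 203.5 TPM in SST libraries (log2 fold change 1.70, adjusted p = 0.223). Tpp1, a serine tripeptidyl peptidase, overlapped between populations (0.87, adjusted p = 0.81).

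Among the 10 cysteine proteases, 1 was called higher, 7 did not overlap between populations, and the median log2 fold change was 1.99. The called gene was Lgmn, which encodes legumain, an asparaginyl endopeptidase that trims other cathepsins (chr12:102394082-102439728). Its level was 1583.7, 1473.9, 3897.9 and 2697.2 TPM in PKCd replicates 1 to 4, and 302.9, 224.5, 303.6 and 320.4 TPM in SST replicates 1 to 4. The SST libraries were close together, with an SD of 43.0 TPM, and the log2 fold change was 2.95 ± 0.48 (adjusted p = 0.032, 0.0152 to 0.181 when a library was left out).

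Ctss, cathepsin S, a protease of antigen-presenting cells and microglia (chr3:95526786-95556405), was 5065.2, 3142.2, 8103.2 and 5019.9 TPM in PKCd libraries. In SST replicates 1 to 4 it was 1280.9, 238.1, 278.5 and 43.7 TPM. The populations did not overlap, but the SST libraries spread so far that the log2 fold change of 3.82 ± 1.02 had an adjusted p of 0.265. Without SST replicate 1, the SST library with the highest microglial sum, the adjusted p was 0.023. In the other 7 fits with a library left out it was 0.247 to 0.59.

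Ctsz, the carboxypeptidase cathepsin Z (chr2:174427494-174439039), was 1116.0, 1388.7, 2218.3 and 1333.2 TPM in PKCd and 247.5, 237.0, 306.4 and 387.5 TPM in SST libraries. Both populations were tight and apart, with a log2 fold change of 2.36 ± 0.44 and an adjusted p of 0.0579. Ctsf, cathepsin F (chr19:4855165-4860918), was 176.2, 410.9, 407.2 and 182.1 TPM in PKCd and 46.1, 67.6, 119.7 and 47.0 TPM in SST libraries, a log2 fold change of 2.17 ± 0.54 (adjusted p = 0.2). Its lowest PKCd library was above its highest SST library by a small margin next to the spread within PKCd.

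The remaining cysteine proteases separated less. The aminopeptidase Ctsh (1.86, adjusted p = 0.292), the broadly expressed endopeptidases Ctsb (1.20, 0.558) and Ctsl (0.76, 0.861) did not overlap between populations, with Ctsb reaching 603.1 TPM in SST and starting at 625.5 TPM in PKCd libraries. Ctsc, which activates granule proteases, ran from 4.26 to 575.9 TPM in PKCd and from 0.288 to 186.5 TPM in SST libraries, and its interval reached from -0.86 to 5.11. Ctso, cathepsin O (chr3:81932601-81956725), was 98.5, 21.9, 208.4 and 221.7 TPM in PKCd and 107.0, 121.5, 105.6 and 208.7 TPM in SST libraries, so that the populations overlapped (-0.26 ± 0.58, adjusted p = 0.972). The sign for Ctso turned to 0.21 without PKCd replicate 2.

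Ctsk, cathepsin K, the collagen-cutting protease of osteoclasts and fibroblasts (chr3:95499210-95509387), had the lowest log2 fold change of the members, -2.17 ± 1.64 (adjusted p = 0.885). It was 14.5, 0, 20.0 and 15.8 TPM in PKCd and 85.0, 27.2, 6.11 and 69.3 TPM in SST libraries, and SST replicate 3 fell inside the PKCd range. Ctsk ends 17399 bases before the start of Ctss on the same chromosome, and the pair had log2 fold changes of opposite sign.

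**Figure D2:**
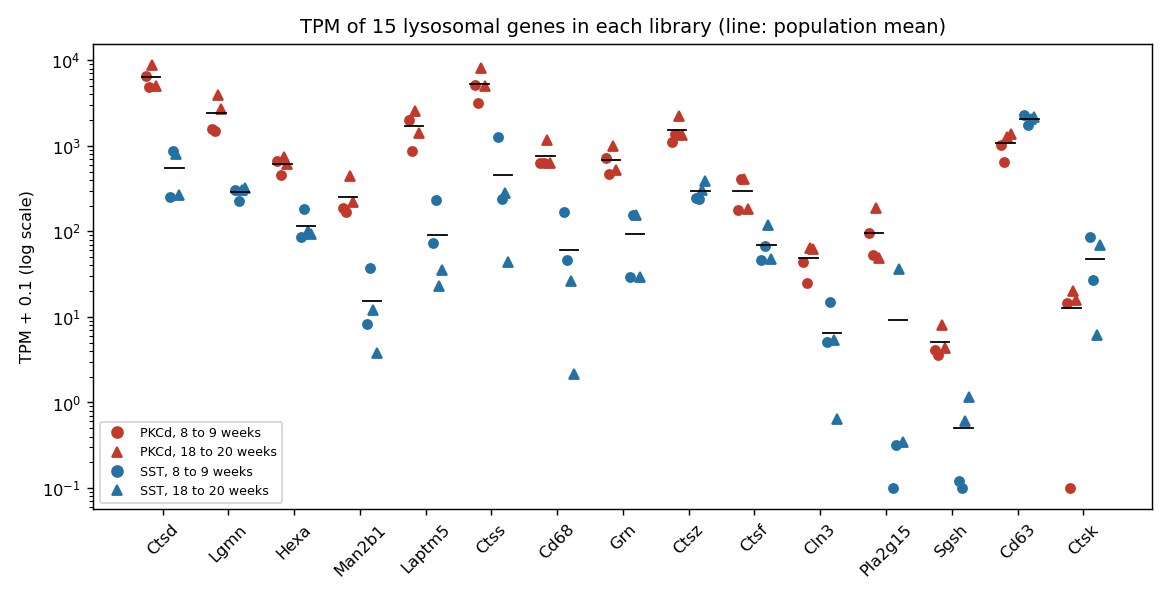
TPM of 15 members in each library, on a log axis after adding 0.1 TPM, with PKCd in red, SST in blue, circles for mice of 8 to 9 weeks and triangles for 18 to 20 weeks, and lines for population means. The first 13 genes do not overlap between populations and are higher in PKCd, Cd63 is lower in all 4 PKCd libraries (649.4 to 1358.6 TPM against 1730.4 to 2288.4 TPM), and Ctsk overlaps.

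Of the 15 glycosidases, sulfatases and the sialidase, 2 were called higher, 5 did not overlap, and all 15 log2 fold changes were above 0, with a median of 1.01. Hexa, the alpha subunit of beta-hexosaminidase that is lost in Tay-Sachs disease (chr9:59539540-59565109), was 663.8, 455.3, 742.5 and 615.9 TPM in PKCd and 86.2, 180.4, 100.9 and 93.0 TPM in SST libraries. SST replicate 2 stood above the other SST libraries, and the log2 fold change was 2.50 ± 0.43 (adjusted p = 0.0376, 0.0421 to 0.244 when a library was left out). Man2b1, the acid alpha-mannosidase lost in alpha-mannosidosis (chr8:85082730-85098739), was 185.5, 167.8, 444.0 and 220.3 TPM in PKCd and 8.12, 36.9, 11.8 and 3.65 TPM in SST libraries. Its populations were far apart, with a log2 fold change of 4.33 ± 0.74 (adjusted p = 0.0364, 0.0275 to 0.237 when a library was left out).

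Sgsh, the sulfamidase that removes sulfate from heparan sulfate (chr11:119343489-119355510), was 4.05, 3.50, 7.97 and 4.29 TPM in PKCd and 0.0217, 0, 0.513 and 1.06 TPM in SST libraries. The log2 fold change of 5.15 ± 2.05 (adjusted p = 0.617) rests on 342 estimated counts in the PKCd and 10 in the SST libraries. Gusb, the beta-glucuronidase, and Arsb, a sulfatase of dermatan sulfate, did not overlap between populations but differed by only 1.28 (adjusted p = 0.792) and 1.02 (0.81).

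The other 10 overlapped. Naglu and Manba had high log2 fold changes, 5.67 and 4.20, with intervals that held both 0 and the microglial median, and SST sums of 29 and 142 estimated counts. Idua (1.01), Arsa (0.98), Gaa (0.71), Neu1 (0.71), Glb1 (0.54), Ids (0.52), Fuca1 (0.32) and Gla (0.13) had intervals that held 0. For Gaa, the glycogen-digesting glucosidase, SST replicate 2 was the highest of all libraries at 243.5 TPM, and that library also had the highest oligodendrocyte marker sum, 59653.7 TPM.

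The 10 lipid proteins had a median log2 fold change of 0.18, 0 calls and 2 members without overlap. Pla2g15, the lysosomal phospholipase A2 (chr8:106150354-106164718), was 95.2, 53.1, 189.1 and 49.0 TPM in PKCd and 0, 0.217, 35.8 and 0.25 TPM in SST libraries. SST replicate 3 stood far above the other SST libraries, and the log2 fold change of 5.97 ± 2.04 had an adjusted p of 0.466. Without that library it was 0.0448, and in the other 7 fits with a library left out 0.423 to 0.695. Npc2, the soluble sterol carrier, was 186.9 to 243.7 TPM in PKCd and 126.3 to 181.8 TPM in SST libraries, a separation of 0.58 on the log2 scale with an adjusted p of 0.881. Psap, the precursor of the saposins, had a log2 fold change of 1.39 (adjusted p = 0.443) and overlapped, with PKCd replicate 2 at 693.2 TPM and SST replicate 3 at 706.8 TPM.

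The remaining lipid proteins had intervals that held 0. Lipa, the acid lipase, differed by 1.06, and the acid ceramidase Asah1 (0.21), the ganglioside activator Gm2a (0.15), the thioesterase Ppt1 (0.12) and the acid sphingomyelinase Smpd1 (0.00, interval -1.22 to 1.22) were near 0. Npc1, the membrane partner of Npc2, was 27.5, 31.6, 7.67 and 1.98 TPM in PKCd and 10, 26.1, 27.1 and 24.1 TPM in SST libraries (-0.74 ± 0.95, adjusted p = 0.953). Galc, the galactocerebrosidase lost in Krabbe disease (chr12:98202287-98259459), was 10.9, 1.97, 0 and 0.907 TPM in PKCd and 0, 12.2, 5.54 and 3.28 TPM in SST libraries (-1.29 ± 2.19, adjusted p = 0.959). Both populations of Galc and Npc1 overlapped widely, and each sign turned under limma-voom and in the younger libraries alone.

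The 8 membrane proteins fell on both sides. Laptm5, a transmembrane protein of blood-derived cells and microglia (chr4:130912890-130936148), had the largest log2 fold change of the called members: it was 1992.9, 873.5, 2542.7 and 1414.8 TPM in PKCd and 72.9, 232.9, 23.1 and 35.4 TPM in SST libraries (4.72 ± 0.76, adjusted p = 0.0309, 0.031 to 0.132 when a library was left out). Cd68, the macrosialin used to stain phagocytes (chr11:69664213-69666170), was 635.7, 624.1, 1162.1 and 622.4 TPM in PKCd and 167.8, 46.5, 26.2 and 2.04 TPM in SST libraries (4.15 ± 1.17, adjusted p = 0.297). The SST libraries of Cd68 spanned the widest range of the non-overlapping members above 0 in every library. Their order was that of their microglial sums, as it also was for Mcoln1. Cln3, the battenin of juvenile Batten disease (chr7:126571207-126585817), was 43.2, 25.1, 64.4 and 62.1 TPM in PKCd and 5.02, 14.9, 5.34 and 0.548 TPM in SST libraries (3.22 ± 1.15, adjusted p = 0.506).

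Cd63, a tetraspanin of late endosomes and exosomes (chr10:128896231-128912822), went the other way. It was 1029.9, 649.4, 1273.7 and 1358.6 TPM in PKCd and 2288.4, 1730.4, 2038.4 and 2141.0 TPM in SST libraries, with no overlap. On the log2 scale PKCd minus SST came to -0.99 ± 0.43, at an unadjusted p of 0.0419 and an adjusted p of 0.707. Cd63 made up 3.18 to 5.13% of all member TPM in PKCd libraries and 19.1 to 27.7% in SST libraries. This gap in share is wider than that in Cd63 TPM, whose ratio of means was 0.526. The member sum itself was higher in PKCd libraries (28048.1 against 8268.6 TPM). The sum of 6 mural cell markers was also lower in PKCd libraries, 101.6 to 3743.2 TPM against 2144.1 to 10300.7 TPM, with no marker at 0 in all SST libraries, and its part in the Cd63 and Ctsk values was not tested. Scarb2, the receptor that carries glucocerebrosidase to the lysosome (chr5:92441311-92505657), was 84.6, 41.3, 23.5 and 63.7 TPM in PKCd and 65.4, 80.9, 79.1 and 109.6 TPM in SST libraries (-0.67 ± 0.61, adjusted p = 0.917), with PKCd replicate 1 inside the SST range. The major membrane glycoproteins Lamp1 (0.13, interval -1.09 to 1.34) and Lamp2 (-0.21, interval -1.43 to 1.00) and the calcium channel Mcoln1 (0.24) overlapped.

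Of the regulators, Grn encodes progranulin, a secreted protein that is cut into granulins in the lysosome (chr11:102430507-102436809). Grn was 727.4, 466.1, 983.3 and 526.6 TPM in PKCd and 28.8, 155.9, 155.6 and 28.8 TPM in SST libraries. The populations were apart, with a log2 fold change of 3.02 ± 0.62 and an adjusted p of 0.101. Tfeb, the factor named above, ran from 18.4 to 36.8 TPM in PKCd and from 0.214 to 65.0 TPM in SST libraries (0.67, adjusted p = 0.971). The acid phosphatase Acp2 overlapped (0.41).

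Members were then set against the microglial median. An interval above 0 that held 4.42 was named in step with the microglial markers, which does not show that the 2 differences are equal. This held for 8 members (16.3%, background 2.79%): Cln3, Ctsd, Ctss, Cd68, Man2b1, Laptm5, Sgsh and Pla2g15. The intervals of Sgsh (0.66 to 9.64) and Pla2g15 (1.49 to 10.45) were too wide to place them. Those of Cln3 (0.69 to 5.74) and Cd68 (1.59 to 6.71) were also wide. The class depends on interval width as well as on the fold change. An interval wholly below 4.42 was found for 38 members (77.6%), close to the share over all genes tested (78.3%). The microglial marker Sall1 also lay wholly below it (2.61, interval 0.94 to 4.28). The median was taken as fixed, though it ran from 3.81 to 5.6 when a library was left out. A member just below it is therefore not shown to depart from the microglial markers. Within those 38, 9 lay above 0 (18.4% of the members, 1.36% of all genes): Ctsb, Psap, Ctsa, Ctsh, Ctsf, Ctsz, Hexa, Lgmn and Grn, the last just short with an upper bound of 4.38. Another 28 held 0 (57.1% of the members, 74.6% of all genes), 1 lay below 0 (Cd63; 2.34% of all genes), and Ctsc, Manba and Naglu, 6.12% of the members against 18.8% of all genes, were undecided. Of members with a promoter window, 3 of 8 in step, 3 of 7 short but above 0 and 7 of 26 whose interval held 0 carried CACGTG.

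In TPM, the 8 members in step summed to 14514.1 ± 4903.5 in PKCd and 1192.6 ± 610.1 in SST libraries, a ratio of 12.2, beside 17.1 for the microglial markers. The 9 intermediate members had a ratio of 4.15, with 2118.4 ± 523.0 TPM in SST libraries. The 28 whose interval held 0 summed to 3321.5 ± 980.8 and 2837.7 ± 580.3 TPM, a ratio of 1.17. These groups were formed from the same fit, so their ratios describe them and test nothing.

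Levels were also set beside the microglial sum of each library, which ran from 220.2 to 4162.7 TPM in SST libraries. Within SST that sum was 4162.7 and 1335.2 TPM in the younger and 983.2 and 220.2 TPM in the older libraries. Age class and depth therefore go with it. Per 100 TPM of microglial markers, Ctss was 17.7, 12.3, 21.6 and 22.3 TPM in PKCd and 30.8, 17.8, 28.3 and 19.9 TPM in SST libraries, so that its ratio overlapped between populations. Cd68 was 2.22, 2.45, 3.09 and 2.76 in PKCd and 4.03, 3.48, 2.67 and 0.927 in SST libraries on this scale. Dividing by the microglial sum lowered the SD of log2 values over the 8 libraries from 2.69 to 0.42 for Ctss and from 3.14 to 0.64 for Cd68.

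Ctsd differed from those. Its ratio was 19.3 to 23.3 TPM per 100 in PKCd libraries, but 5.99, 65.4, 82.2 and 121.2 in SST replicates 1 to 4, and the SD of log2 values went only from 2.11 to 1.40. Of 41 members above 0 TPM in every library, 8 varied less over the 8 libraries as a ratio to the microglial sum than as TPM: Ctss, Cd68, Man2b1, Cln3, Laptm5, Ctsd, Lgmn and Grn. The other 33 varied more, as a gene at a constant level would, because the microglial sum itself spans 170.6-fold. This SD takes in the difference between populations, so it largely repeats the fold changes and does not show what moved inside a population. The share over all genes was not taken. Only Cd68 and Mcoln1, 2 of the 41, ranked the 4 SST libraries as the microglial sum did. An order of 4 libraries is easily matched by chance, and the share over all genes was not taken. Mcoln1 had a log2 fold change of 0.24 between populations (interval -2.94 to 3.41), so this order does not mark a member as following the microglial markers. Ctsd and Grn were highest in SST replicates 2 and 3, which also had the highest oligodendrocyte marker sums of that population (59653.7 and 25657.3 TPM, against 10181.3 and 11546.1), and the part of those cells in their levels was not tested.

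**Figure D3:**
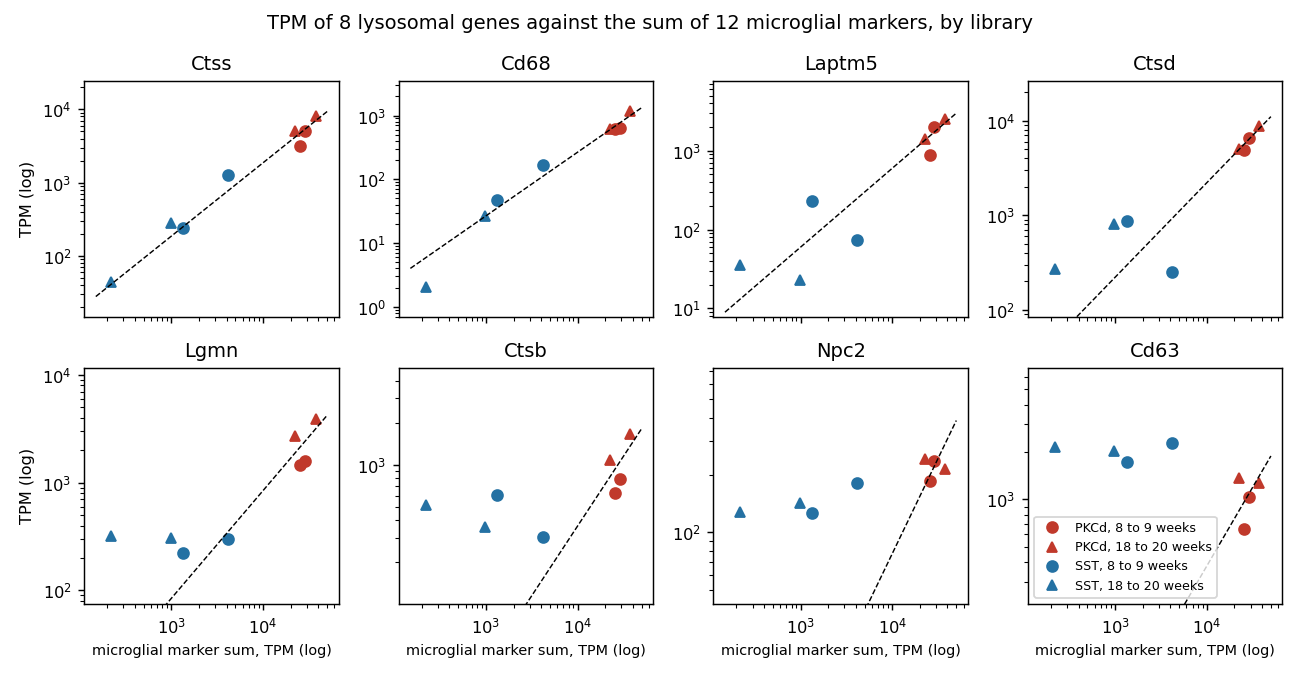
TPM of 8 members against the summed TPM of 12 microglial markers in each library, both axes on a log scale, with a dashed line of constant ratio set to the PKCd means. Ctss and Cd68 lie near the line in SST as well as PKCd libraries, except that Cd68 falls below it in SST replicate 4 (2 estimated counts). Ctsd and Lgmn lie above it in the SST libraries of low microglial sum, and Ctsb, Npc2 and Cd63 lie above it in all 4 SST libraries.

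Markers of other cell types were read beside these values. The sum of 8 markers of border macrophages, which share lysosomal genes with microglia, was 15.9, 527.3, 37.7 and 96.5 TPM in PKCd and 0.111 to 3.61 TPM in SST libraries, where Pf4, Cbr2, Ms4a7 and Clec12a were at 0. Endothelial marker sums overlapped widely (289.1 to 4670.6 TPM in PKCd and 115.3 to 4028.2 TPM in SST libraries). Astrocyte sums were 343.7 to 3911.3 and 2651.8 to 6885.6 TPM, and the 5 measured markers of blood monocytes and neutrophils summed to at most 14.5 TPM in PKCd and 195.5 TPM in SST libraries. Precursors of oligodendrocytes summed to 7.11 to 36.2 TPM in PKCd and 32.9 to 998.2 TPM in SST libraries. Members were set beside the microglial sum as a description, and the part of microglia or of these other cells in the members' levels was not tested.

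Lists of other genes of the pathway showed 0 calls in either direction. At an unadjusted p under 0.05, 6 of their 64 tested genes (9.38%) were higher and 0 lower, beside 4.33% and 2.34% of all genes. Of the proton pump subunits, which acidify the organelle, 18 of 19 were tested, with a median log2 fold change of -0.29, 1 member higher and 0 lower at an unadjusted p under 0.05. The 10 genes that sort enzymes to the lysosome had a median of 0.72. TFEB's relatives and the mTORC1 docking proteins had a median of -0.38 over 12 of 13 genes, and 21 of 22 further lysosomal enzymes and membrane proteins a median of -0.10. Among 4 cathepsin inhibitors, 3 were tested, with a median of 1.06.

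2 genes of these lists are named after their values were seen. Cst3, the cystatin C that inhibits cysteine cathepsins, was 52302.0 to 84150.1 TPM in PKCd and 11979.7 to 50948.7 TPM in SST libraries (1.48, adjusted p = 0.683). Tfe3, a relative of Tfeb, was 37.1 to 125.6 TPM in PKCd and 0 to 11.4 TPM in SST libraries (6.26 ± 1.80, adjusted p = 0.302).

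Between age classes, 0 members were called higher and 0 lower in older mice (edgeR, background 0.0265% in each direction), while 1 of each (2.04%) reached an unadjusted p under 0.05, fewer than the 2.94% higher and 5.41% lower of all genes. The calls of DESeq2 were Manba, higher, and Lamp1, lower, beside 2.25% and 2.75% of the genes with an adjusted p. Lamp1, a major glycoprotein of the lysosomal membrane, is described after its values were seen. It was 1295.2 and 404.6 TPM in the younger and 192.7 and 92.2 TPM in the older PKCd libraries, and 891.2 and 1420.0 TPM in the younger and 146.1 and 42.7 TPM in the older SST libraries. The older libraries lay below all younger ones in both populations, in the member Lamp1 as in 3.53% of all genes tested. Manba, also named after its values were seen, separated the other way, as did 4.15% of all genes, with 13.9 to 48.3 TPM in the older and 0 to 11.2 TPM in the younger libraries (5.56 ± 2.44, adjusted p = 0.571). The log2 fold change of Lamp1, older minus younger, was -3.32 ± 0.60 with an adjusted p of 0.0777. It was 1.47e-05 under DESeq2, 1.03e-06 with no filter, 0.024 for log2(TPM + 1) in limma, 0.0726 for log2(TPM + 0.1), 0.095 to 0.166 with other scalings, the 10 CPM filter or limma-voom, and 0.0778 to 0.333 when a library was left out. Lamp2 went from 226.0 ± 123.5 TPM in the younger to 385.4 ± 84.5 TPM in the older libraries (SD, n = 4), with an adjusted p of 0.769. Age class, depth and the run codes of the libraries go together and cannot be told apart.

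**Figure D4:**
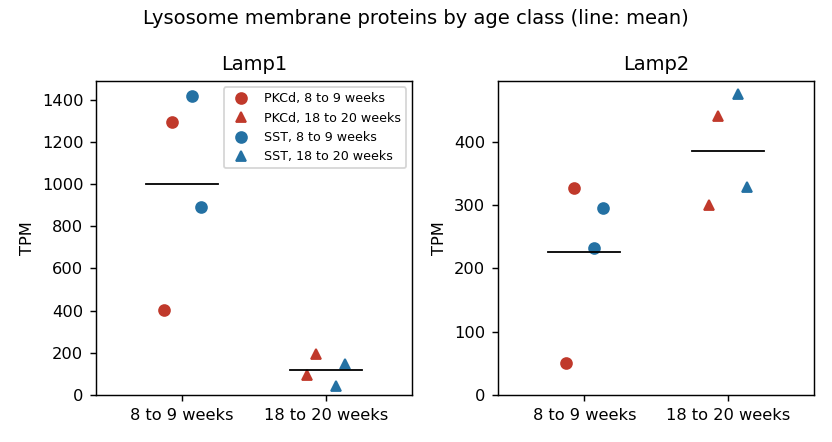
TPM of Lamp1 and Lamp2 in the 8 libraries by age class, on linear axes from 0, with PKCd in red, SST in blue and lines for the mean of 4 libraries. Lamp1 is at 404.6 to 1420.0 TPM in the 4 younger libraries and at 42.7 to 192.7 TPM in the 4 older ones, while Lamp2 overlaps.

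The population difference was also compared between age classes. With the edgeR interaction term 0 members were called (background 0.0%), as with DESeq2, limma-voom and limma on TPM. At an unadjusted p under 0.05, 3 members (6.12%, background 0.998%) had a larger PKCd difference in older mice, Ctss (by 3.32 on the log2 scale), Cd68 (3.99) and Laptm5 (2.78). Naglu and Pla2g15 had a smaller one, a share of 4.08% that is near the 3.12% of all genes. The adjusted p was 1.0 for each of these 5. The microglial markers had a median interaction of 2.68, and 5 of 12 had an unadjusted p under 0.05, all larger in older mice, where the SST sums were 983.2 and 220.2 TPM against 4162.7 and 1335.2 TPM in the younger mice.

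Of the 50 members, 37 had 1 transcript target and 13 had several, 72 in all, which were added per gene. The short 899-base target of Cd63 took 80.3 to 91.1% of that gene's TPM in every library. The 2567-base target of Psap took 46.2 to 100%, and the 5 other targets of Psap are 2624 to 2660 bases long. The 1788-base target of Lamp2 took 46.9 to 53.5% in PKCd libraries and 45.4 to 76.6% in SST libraries. For Cd63 and Lamp2 the ranges of the populations overlapped.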

How the data were processed

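RNA of about 1000 sorted cells per library was prepared with the SMARTer smRNA-Seq kit and sequenced on an Illumina HiSeq system, per the labels' protocols. Kallisto 0.43.0 and BWA 0.7.12 appear in the submitters' processing notes, with build mm10. The estimated counts per transcript target were deposited by the authors as kallisto gives them, and the deposited TPM values are scaled by target length within each library. Effective length is target length minus 199 bases for 30380 of 30404 targets, per the file headers and values. The sources used here do not give the annotation behind the targets.

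Targets were named from RefSeq (30080) or GENCODE (147), 177 kept their accession, and values were summed over 20692 genes. Estimated counts were rounded and fitted with edgeR 4.0.16 (R 4.3.3; TMM, filterByExpr by population, terms for age class and population, quasi-likelihood test) on all genes, and p-values were adjusted by Benjamini-Hochberg over 11328 genes with a threshold of 0.05. Intervals are 95% from the fitted SE. Alternatives used limma 3.58.1 and DESeq2 1.42.0. On simulated data for PKCd against SST (10734 genes), edgeR recovered 0, 41.3 and 75.8% of genes changed 4, 16 and 64-fold with 4 unchanged genes called, and DESeq2 14.5, 73 and 88.7% with 103.

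Members and lists were chosen with earlier results of these data known. Full values are given for members past the threshold, up to 8 further members without overlap by size of change, the 6 lowest log2 fold changes and the 4 highest mean TPM. No step here removes duplicate reads, and the libraries carry no stated molecular identifiers, so counting error is not the only error.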

Additional observations from a re-analysis of the deposited data

Results flagged for a closer look

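Each population of 4 libraries was searched, for each of the 50 members, for a library far from the other 3 (Dixon's ratio). Of 100 groups, 5 held such a library, and chance gives about 1 in 20. Ctso reached 208.7 TPM in SST replicate 4, while the other SST libraries lay between 105.6 and 121.5 TPM. Hexa reached 180.4 TPM in SST replicate 2, with the others between 86.2 and 100.9 TPM. Naglu reached 13 TPM in SST replicate 3, with the others at 0.275 TPM or less, and Pla2g15 reached 35.8 TPM in the same library, with the others at 0.25 TPM or less. Cd68 reached 1162.1 TPM in PKCd replicate 3, while the other PKCd libraries lay between 622.4 and 635.7 TPM.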

How the results depend on the processing

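The number of members called higher was 4 or 5 under other scalings of counts and a filter of 10 CPM, and 7 for log2(TPM + 0.1). It was 12 with no filter, 16 with DESeq2, 8 with limma-voom, 10 for log2(TPM + 1), 3 with no age term, and 0 in the 8 to 9 week libraries alone and in the 18 to 20 week libraries alone, where only 4 libraries remain. Leaving out a library gave 0 to 4. Over all genes tested the called higher genes numbered 32 in the edgeR fit, 362 with DESeq2 and 218 with no filter. Members called lower stayed at 0 in every alternative run. Members in step with the microglial markers numbered 5 in the 18 to 20 week libraries alone and 6 to 10 in the others, and members wholly below the microglial median 24 in the 8 to 9 week libraries alone and 32 to 41 in the others. Members without overlap numbered 20 to 24 higher and 1 to 2 lower when a library was left out, a step that cannot lower these counts. The second lower member was Scarb2 without PKCd replicate 1 and Ctsk without SST replicate 3, named after their values were seen. On the CPM scale the members without overlap numbered 18 and 1. In older mice, 1 member was called higher with DESeq2 (Manba), and 1 lower with DESeq2, no filter and log2(TPM + 1) (Lamp1). The interaction gave 0 in every alternative run.

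Replicate numbers did not pair the libraries: same-numbered libraries deviated together with correlations of 0.0764, 0.124, 0.0615 and 0.174. The fit with a replicate block called 2 members higher.

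Log2 fold changes reversed only in members whose interval held 0. Under limma-voom, which moved the median of all genes by 0.18, they were -0.03 for Gla, 1.20 for Galc, -0.30 for Asah1, -0.43 for Idua, -0.06 for Neu1, 0.51 for Npc1, -0.19 for Gm2a, -0.13 for Ppt1, -0.43 for Lamp1 and -1.46 for Mcoln1. In the 8 to 9 week libraries alone they were -0.09 for Gaa, -0.36 for Gla, 0.38 for Galc, -0.84 for Asah1, -0.39 for Idua, 0.80 for Npc1, -0.48 for Gm2a, -0.41 for Ppt1, -0.42 for Lamp1 and -1.64 for Mcoln1. In the 18 to 20 week libraries alone they were 0.46 for Ctso and -0.69 for Glb1. For log2(TPM + 1) they were -0.05 for Idua and -0.23 for Mcoln1, and for log2(TPM + 0.1) -0.77 for Idua, -0.08 for Neu1 and -0.29 for Mcoln1. With a replicate block they were -0.39 for Idua and -0.43 for Mcoln1, and with no age term -0.34 for Lamp1 and -0.02 for Mcoln1. Leaving out a library gave -0.62 to 0.21 for Ctso, -0.25 to 0.67 for Gla, -0.31 to 0.81 for Asah1, -1.68 to 1.49 for Idua, -0.34 to 1.71 for Neu1, -0.15 to 0.60 for Gm2a, -0.18 to 0.44 for Ppt1, -0.25 to 0.52 for Lamp1, -0.82 to 0.17 for Lamp2, -0.69 to 1.20 for Mcoln1 and -0.11 to 0.76 for Acp2. The cause was not tested. The fold change of Sgsh rests on 10 estimated counts over the 4 SST libraries.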
